A study of Rattus norvegicus with 15 samples.

Results

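Microtubule genes in dbcAMP-treated rat sensory ganglion cells were taken as the probes annotated to tubulins (symbols starting with Tuba, Tubb or Tubg), kinesin heavy chains (Kif), kinesin light chains (Klc), dynein chains (Dync and Dynl), stathmins (Stmn), collapsin response mediator proteins (CRMPs, symbols starting with Dpysl) and the microtubule-associated proteins Map1a, Map1b, Map2, Map4, Map6 and Mapt. The rule matched 44 of 5088 probes and 40 of the 4153 genes named on the arrays, with 2 probes each for Tuba1a, Map1b, Kif1b and Dync2h1 and none for Map4. The rule used gene names and no measured value, and all 44 had a ratio on every array. Kif had to be followed by a digit, so Kifc1 and Kifc3 were not members.

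Dissociated cells of the L4 and L5 dorsal root ganglia (DRG) of juvenile rats were cultured in Sato medium and given 1.5 mM dibutyryl cAMP (dbcAMP), a membrane-permeant analogue of cyclic AMP, or medium alone. Treated RNA (Cy5) and untreated RNA (Cy3) shared each spotted oligonucleotide array, with 3 arrays at each of 1, 3, 6, 12 and 18 h after dbcAMP. The comparison asks which transcripts differ between treated and untreated cells, in a study of genes tied to axon regrowth. Wells were coated with poly-L-lysine or myelin, and the labels do not say which for each array. No array had its dyes swapped, so a probe that favours 1 dye cannot be told apart from one whose transcript changed, except in differences between times. Nothing in the labels tells if replicate arrays were made from independent cultures, and p-values measure only the spread between these arrays.

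Microtubules are polymers of alpha and beta tubulin that grow from gamma tubulin complexes, and they fill the axon as tracks and scaffold. Structural MAPs and tau bind and stabilise the lattice, stathmins sequester tubulin dimers and promote disassembly, and CRMPs bind tubulin dimers and take part in growth cone guidance. Kinesins carry cargo mainly towards the axon tip or take microtubules apart, and cytoplasmic dynein carries cargo towards the cell body.

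Values are log2 of the deposited ratio of treated over untreated RNA, so that 0 is no difference. A probe is called higher or lower where its adjusted p in limma, over all probes tested at that time, was below 0.05. Arrays fell into 9 of narrow spread (SD of log2 ratios over all probes 0.357 to 0.434) and 6 of wide spread (0.627 to 0.703), the wide ones being all 3 of 18 h, array 3 of 6 h and arrays 1 and 2 of 12 h. A ratio gives no level of a transcript, so the labelled cell type could not be checked by the level of its markers. Over all probes 10.6% were higher and 11.3% lower at 18 h. Of 23 probes of sensory neuron markers, 2 were higher and 2 lower at 18 h, with a median of -0.08. Of 16 Schwann cell and satellite glia probes, 3 were higher and 3 lower (median -0.17), of 11 fibroblast probes 1 was higher and 3 lower (median -0.23), of 7 macrophage probes 1 was higher and 1 lower (median -0.04), and none of 6 endothelial probes was called (median 0.11). Of 13 probes of cell cycle genes, 1 was lower (median 0.12). No probe of these 6 lists was called between 18 h and 1 h, against 2.74% of all probes. In cultures of several cell types, fewer cells of a type and less RNA per cell cannot be told apart.

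At 18 h, 13 of the 44 microtubule probes were called (29.5%), 6 higher and 7 lower, against 22.0% of all probes (10.6% higher and 11.3% lower). The median of the 44 was 0.00, as many lay above 0 as below (22 each), and their means ran between -1.29 and 1.62. Over all probes the median was 0.01. The spread among members (SD 0.549) was close to that among all probes (0.539). When scaled so that all arrays had 1 spread, 6 members were called (3 higher and 3 lower), against 8.37% of all probes, and with the 18 h arrays alone 2 were called (Tubg1 and Map1b 31C04), against 3.66%. Gamma tubulin, Map1b, Map1a and 3 kinesin probes were higher, whereas an alpha and a beta tubulin, 3 stathmins, Dpysl2 and Map6 were lower.

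**Figure D1:**
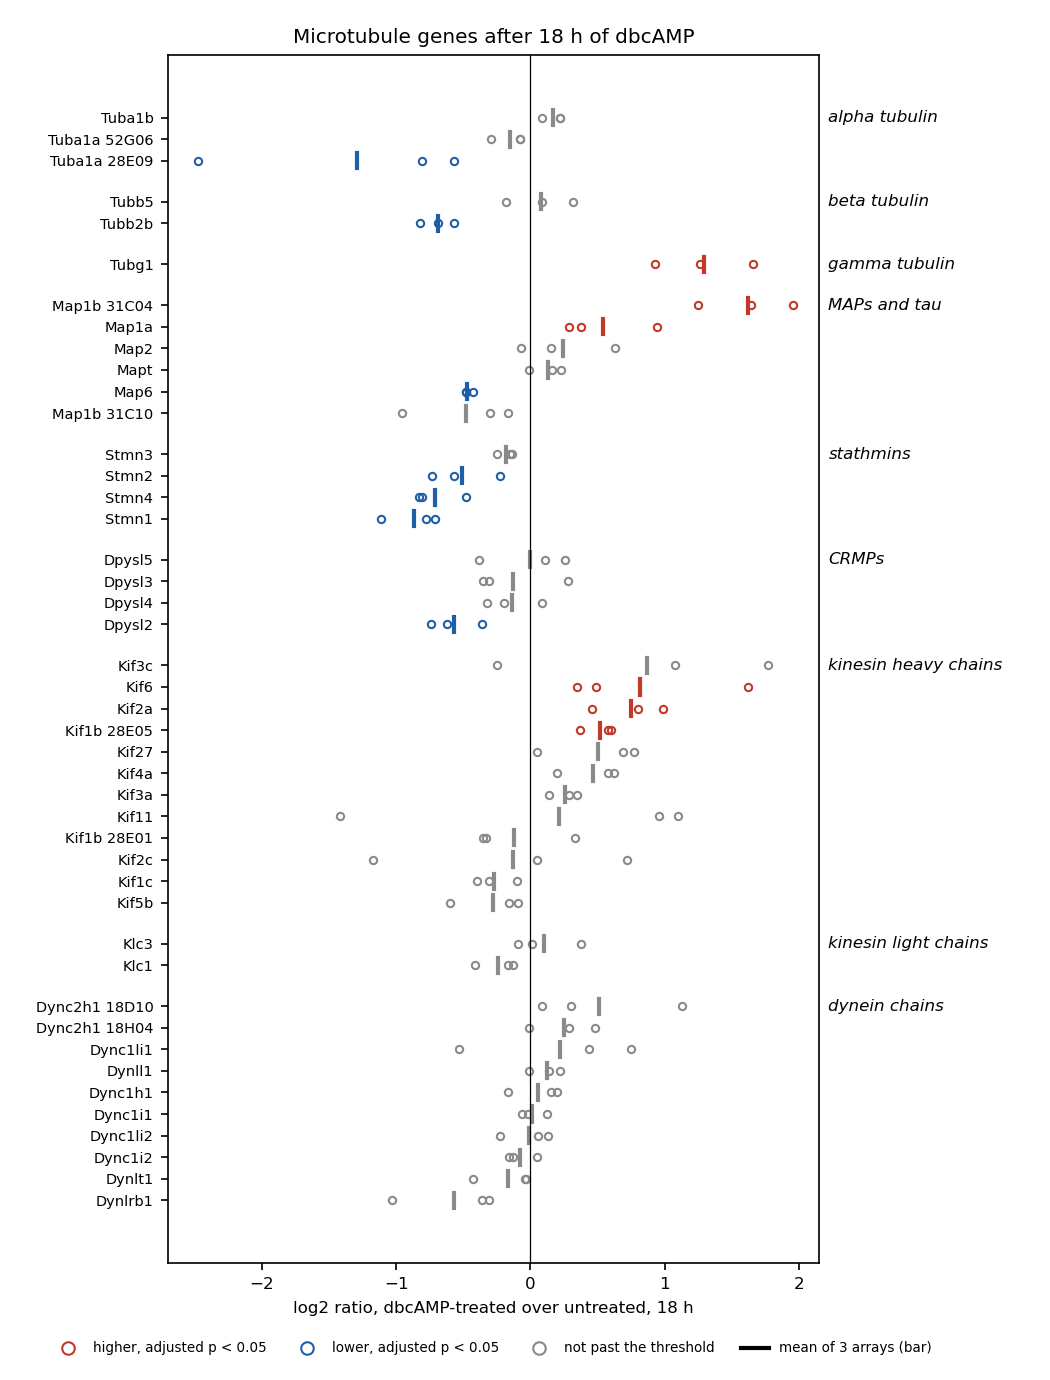
Log2 ratio of dbcAMP-treated over untreated RNA at 18 h (horizontal axis) for the 44 microtubule probes, grouped by role. Open circles are the 3 arrays, bars are their means, and colours give the call at an adjusted p below 0.05 (limma). Tubg1 and Map1b probe 31C04 lie farthest to the right among called probes and Tuba1a probe 28E09 farthest to the left, with an array at -2.48.

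Earlier in the course few members were called. At 1 h 3 were higher (6.82%), against 2.33% of all probes called (0.732% higher and 1.60% lower). At 3 h again 3 were higher, against 2.87% (0.931% higher and 1.94% lower). At 6 h 2 were higher, against 4.19% (1.84% higher and 2.35% lower). At 12 h 3 were higher and 1 lower, against 8.58% (3.81% higher and 4.77% lower). The early calls came from the same 3 probes, Map1b 31C04, Map1a and Kif1b 28E05, and the lower call at 12 h was Stmn4. Member medians were 0.09, 0.06, 0.07, -0.02 and 0.00 at 1, 3, 6, 12 and 18 h, and the SD over members widened to 0.549 at 18 h, against 0.295 at 1 h.

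A constant dye preference of a probe cancels in the difference between 18 h and 1 h. This difference was called for 4 of 44 members (9.09%), 1 higher and 3 lower at 18 h, against 2.74% of all probes (1.18% higher and 1.56% lower). These were Tubg1, Tuba1a 28E09, Tubb2b and Stmn4. None of the 4 passed when all arrays were scaled to 1 spread, a setting in which 0.240% of all probes passed. The F test over the 5 times called 1 member, Tubg1, against 1.87% of all probes. For 31 of the 44 members the value at 18 h was below that at 1 h, against 2509 of 4995 probes tested. The median difference was -0.15, against 0.00 over all probes. These are deposited ratios, before any subtraction of plate medians.

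**Figure D2:**
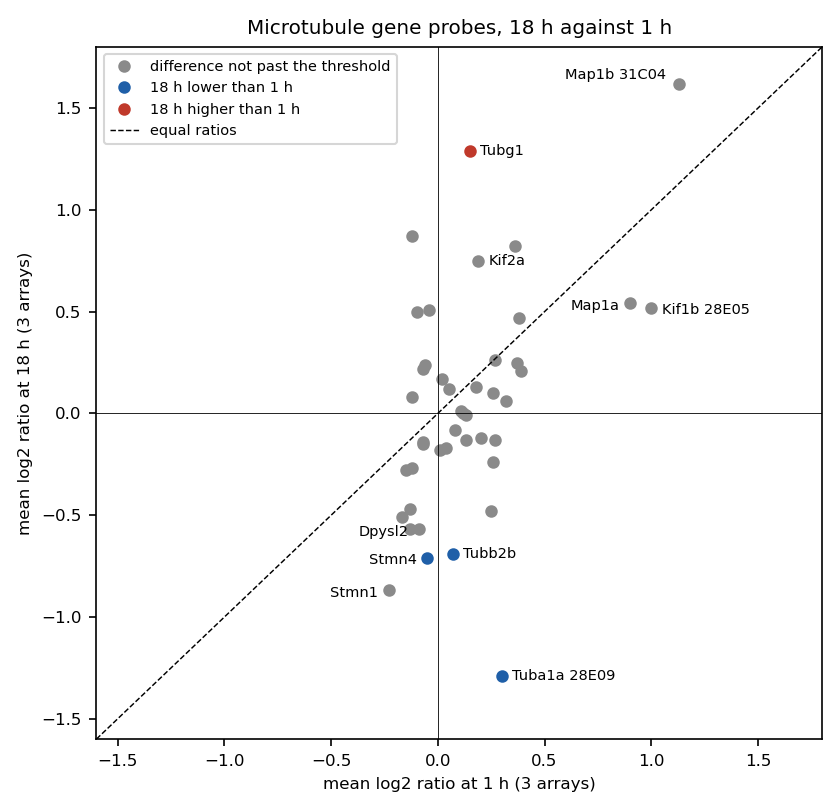
Mean log2 ratio at 18 h (vertical axis) against that at 1 h (horizontal axis) for the 44 microtubule probes, 3 arrays each, with the dashed line at equal values. Coloured points differ between 18 h and 1 h at an adjusted p below 0.05 (limma). Tubg1 lies above the line and Tuba1a 28E09, Tubb2b and Stmn4 below it, while Map1b 31C04, Map1a and Kif1b 28E05 were high at both times.

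To show what lies upstream of the members called between 18 h and 1 h that had a promoter in the reference table (Tubg1, Tubb2b and Tuba1a) and of those with a probe called at every time (Map1a and Map1b), their sequences are given for the 250 bases before the start of the gene. Letters are lower case except for the motif TGACG or its reverse complement CGTCA, the core of the cAMP response element bound by CREB. Sequences are those of RefSeq (build GRCr8), each read 5′ to 3′ on the strand of its gene. The window of Tubg1 is chr10:86552893-86553142 on the plus strand, with the motif 118 bases before the start. That of Tubb2b is chr17:30952836-30953085 on the plus strand, with the motif 136 bases before the start. That of Map1a is chr3:128722445-128722694 on the plus strand, with the motif 82 and 38 bases before the start. That of Tuba1a, chr7:131995820-131996069 on the minus strand, and that of Map1b, chr2:32644472-32644721 on the minus strand, hold no such motif.
Tubg1: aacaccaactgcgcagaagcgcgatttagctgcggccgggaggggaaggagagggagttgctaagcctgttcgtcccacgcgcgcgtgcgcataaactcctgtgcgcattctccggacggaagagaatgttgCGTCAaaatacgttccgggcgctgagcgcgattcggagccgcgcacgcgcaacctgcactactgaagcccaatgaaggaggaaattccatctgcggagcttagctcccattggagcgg
Tubb2b: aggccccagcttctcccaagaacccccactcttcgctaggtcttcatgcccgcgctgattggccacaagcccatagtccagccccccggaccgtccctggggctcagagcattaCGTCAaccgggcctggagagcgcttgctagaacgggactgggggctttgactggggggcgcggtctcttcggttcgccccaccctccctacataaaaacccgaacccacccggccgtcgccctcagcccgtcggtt
Map1a: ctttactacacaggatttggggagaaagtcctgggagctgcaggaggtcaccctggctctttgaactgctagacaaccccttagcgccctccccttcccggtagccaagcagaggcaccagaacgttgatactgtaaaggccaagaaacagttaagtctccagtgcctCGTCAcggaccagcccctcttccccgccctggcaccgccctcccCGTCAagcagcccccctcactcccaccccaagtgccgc
Map1b: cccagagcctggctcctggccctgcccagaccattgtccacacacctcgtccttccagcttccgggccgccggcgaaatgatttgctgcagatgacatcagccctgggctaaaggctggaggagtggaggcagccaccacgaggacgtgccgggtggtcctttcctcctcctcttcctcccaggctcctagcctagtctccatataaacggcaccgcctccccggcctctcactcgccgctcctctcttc
Tuba1a: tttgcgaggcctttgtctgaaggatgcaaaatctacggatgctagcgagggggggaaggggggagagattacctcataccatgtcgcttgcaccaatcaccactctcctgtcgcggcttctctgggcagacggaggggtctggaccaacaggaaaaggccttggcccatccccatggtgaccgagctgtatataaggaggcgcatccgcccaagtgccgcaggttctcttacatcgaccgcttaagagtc

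A promoter was found for 33 of the 40 genes, and not for Dpysl2, Dync2h1, Dynlrb1, Map6, Mapt, Stmn2 and Stmn4. The core motif, searched on both strands, was in the window of 9 of the 33 (27.3%), against 20% of 27457 rat genes. By call at 18 h it was in 3 of 6 genes called higher, 1 of 3 called lower and 5 of 24 not called. The palindromic element TGACGTCA, which contains the core on both strands, was found for 1 member, Klc1 (3.03%, against 1.78% of all genes). The GC box, GGGCGG or CCGCCC, was in 25 of 33 (75.8%), against 33.5% of all genes, and TATAAA or TTTATA in 2 of 33 (6.06%), against 14.1%. The median share of G and C was 51.2% over all windows. Among members only the windows of Dync1i2 (45.6%) and Map2 (32%) lay below it. The part of this base composition in the motif counts was not tested. These letters are descriptions of the windows and no evidence of binding.

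Gamma tubulin, the nucleator of microtubules, was the 1 member that rose between 1 h and 18 h by the test of the difference. Tubg1 (probe 28F06) was at 0.93, 1.26 and 1.66 on the 3 arrays of 18 h, a mean of 1.29 ± 0.37 (SD, n = 3), or 2.44-fold higher in treated cells (adjusted p = 0.000124). All 3 arrays lay above every earlier array of this probe. The 3 arrays were at 0.28, 0.15 and 0.01 at 1 h, at -0.15, 0.16 and -0.37 at 3 h, at 0.19, 0.14 and 0.04 at 6 h, and at 0.35, 0.84 and 0.03 at 12 h. The value at 18 h exceeded that at 1 h by 1.14 ± 0.23 (SE, adjusted p = 0.0185), and the F test over times gave an adjusted p of 0.0296. With each array number left out in turn the difference stayed between 0.88 and 1.38, but its adjusted p was 0.141 to 0.164.

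The alpha tubulin probes were unequal. Probe 28E09 of Tuba1a, the alpha tubulin abundant in growing neurons, was at -2.48, -0.81 and -0.57 at 18 h, a mean of -1.29 ± 1.04 (SD, n = 3) or 0.409 of the untreated signal (adjusted p = 0.00395). Array 1 was far below the others, and without it the mean was -0.69 (adjusted p = 0.0174). With the 18 h arrays alone the probe was not called (adjusted p = 0.162, limma). At 1 h the probe had been at -0.20, 0.53 and 0.58, at 3 h at 0.00, 0.21 and 0.34, at 6 h at 0.28, 0.17 and 0.09, and at 12 h at -0.01, 0.08 and -0.11. All 3 arrays of 18 h were thus below every earlier array, and 18 h minus 1 h was -1.59 ± 0.38 (SE, adjusted p = 0.0427). That call held without array number 1 and was lost without number 2 or 3 (adjusted p between 0.146 and 0.252). The other probe of Tuba1a, 52G06, was at -0.29, -0.08 and -0.08 at 18 h, a mean of -0.15 with a 95% interval of -0.47 to 0.17 (adjusted p = 0.508), an interval that does not reach the mean of probe 28E09. Its difference from 1 h was -0.08 (adjusted p = 0.898). Tuba1b, a close paralog, had a mean of 0.17 (interval -0.02 to 0.36, adjusted p = 0.186). Tubulin genes are near-identical over much of their length, the probe sequences were not used here, and which transcripts each probe binds is uncertain.

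Of the beta tubulins, Tubb2b, an isotype of developing neurons, was lower at 18 h. Its probe was at -0.57, -0.82 and -0.69, a mean of -0.69 ± 0.13 (SD, n = 3) or 0.619 of the untreated signal (adjusted p = 0.00171). The 3 arrays were at 0.18, 0.00 and 0.01 at 1 h, at 0.23, -0.04 and -0.08 at 3 h, at -0.08, 0.01 and 0.48 at 6 h, and at -0.18, -0.17 and 0.24 at 12 h, all above the arrays of 18 h. From 18 h minus 1 h came a value of -0.76 ± 0.18 (SE, adjusted p = 0.0412). It passed narrowly, with adjusted p between 0.118 and 0.297 when an array number was left out. Tubb5, a beta tubulin made in most cells, had a mean of 0.08 at 18 h (adjusted p = 0.755). Whether the 2 beta tubulins differed from each other was not tested.

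**Figure D3:**
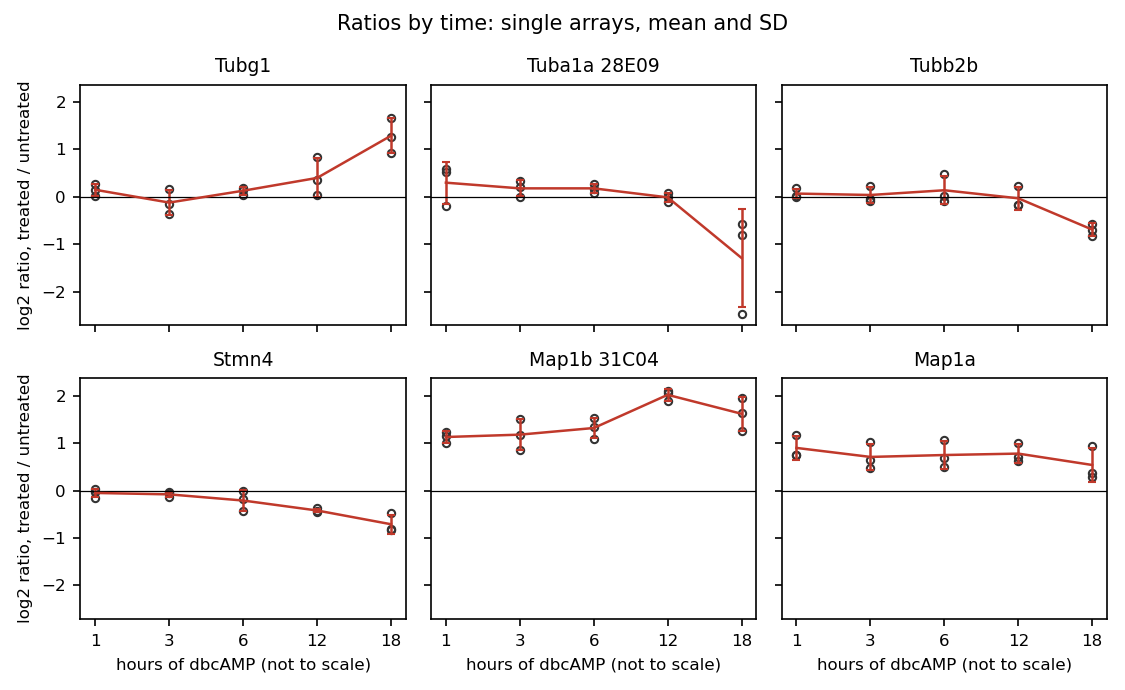
Log2 ratio of dbcAMP-treated over untreated RNA (vertical axes) at 1, 3, 6, 12 and 18 h (horizontal axes, times not to scale) for Tubg1, Tuba1a 28E09, Tubb2b, Stmn4, Map1b 31C04 and Map1a. Circles are the 3 arrays of each time, lines join their means and bars are the SD. Tubg1 left 0 at 18 h, with a mean of 1.29, whereas Map1b probe 31C04 was already at 1.13 at 1 h.

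Among the structural MAPs, Map1b probe 31C04 and Map1a had ratios above 0 from the first time on. MAP1B is the first of these proteins made in growing axons, and probe 31C04 of Map1b had the highest mean of all members at every time. Its arrays were at 1.24, 1.15 and 1.00 at 1 h (mean 1.13, adjusted p = 0.00131), 1.50, 1.17 and 0.86 at 3 h (1.18, adjusted p = 0.000464) and 1.08, 1.34 and 1.53 at 6 h (1.32, adjusted p = 0.000236). They were at 2.06, 2.11 and 1.89 at 12 h (mean 2.02, adjusted p = 7.35e-06) and at 1.96, 1.25 and 1.64 at 18 h, a mean of 1.62 ± 0.36 (SD, n = 3), or 3.07-fold (adjusted p = 8.09e-06). No array of any time fell below 0.86. The difference of 0.49 between 18 h and 1 h did not pass (adjusted p = 0.249), nor did the F test over times (adjusted p = 0.105). A constant dye preference of this probe thus cannot be told apart from a change of the transcript. The other probe of the gene, 31C10, was at -0.17, -0.30 and -0.96 at 18 h, a mean of -0.48 with an interval of -1.05 to 0.10 (adjusted p = 0.23), and its mean at 1 h was 0.25. The 2 probes of Map1b thus gave opposite signs at 18 h, although both came from the same row of plate 31.

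Map1a, which encodes a MAP of mature axons and dendrites, was called at every time with all arrays in the fit. Its means were 0.90 at 1 h (adjusted p = 0.00923), 0.71 at 3 h (0.0268), 0.75 at 6 h (0.0176) and 0.78 at 12 h (0.00889). With any 1 array left out the call was lost at 1 h (adjusted p = 0.0593 to 0.125) and at 3 h (0.0803 to 0.343), and it was also lost without array 1 or 2 at 6 h (0.0678 and 0.113) and without array 1 at 12 h (0.0892). At 18 h the arrays were at 0.94, 0.38 and 0.29, a mean of 0.54 ± 0.35 (SD, n = 3, adjusted p = 0.0277), a call that went without array 1 (0.34, adjusted p = 0.227), with a common spread (0.28, adjusted p = 0.306) and with array weights (0.54, adjusted p = 0.14). At 1 h they were at 1.18, 0.75 and 0.76, which gave 18 h minus 1 h as -0.36 (adjusted p = 0.463). The ratio of Map1a was thus above 0 throughout with no difference detected between the last and the first time. For Map1a, too, a constant dye preference cannot be told apart from a change of the transcript. Map6, which encodes the stable tubule-only polypeptide that makes microtubules resist cold, was lower at 18 h. Its 3 arrays were nearly equal, at -0.48, -0.43 and -0.48 (mean -0.47 ± 0.03 SD, n = 3, adjusted p = 0.0239), with any 1 left out the adjusted p was 0.0672 to 0.0893, and 18 h minus 1 h was -0.33 (adjusted p = 0.416). Map2, the dendritic MAP, had a mean of 0.24 (adjusted p = 0.27) and Mapt, which encodes tau, of 0.13 (adjusted p = 0.58).

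All 4 stathmins were below 0 at 18 h, and 3 were called lower, against 11.3% of all probes and 41 of the 96 probes of plate 43, which held Stmn2, Stmn3 and Stmn4. Stmn4 was lower at 12 h, at -0.46, -0.43 and -0.37 (mean -0.42, adjusted p = 0.0257), and at 18 h, at -0.83, -0.81 and -0.48 (mean -0.71 ± 0.20 SD, n = 3, adjusted p = 0.000414). Its 1 h arrays were at -0.04, 0.04 and -0.15, its 3 h arrays at -0.05, -0.04 and -0.13 and its 6 h arrays at -0.01, -0.18 and -0.44. The means moved down at each step, -0.05, -0.08, -0.21, -0.42 and -0.71, and 18 h minus 1 h was -0.65 ± 0.15 (SE, adjusted p = 0.0316; 0.0713 to 0.343 with an array number left out). Stmn1, the ubiquitous stathmin, was at -0.78, -0.71 and -1.11 (mean -0.87 ± 0.22 SD, n = 3, adjusted p = 0.00733; without array 3, -0.74 and 0.0559). Stmn2, known as SCG10 and made in growth cones, was at -0.57, -0.73 and -0.23 (mean -0.51 ± 0.25 SD, n = 3, adjusted p = 0.00597; without array 2, -0.40 and 0.0546). The differences of Stmn1 (-0.64, adjusted p = 0.277) and Stmn2 (-0.34, adjusted p = 0.314) between 18 h and 1 h did not pass. Stmn3 had a mean of -0.18 (adjusted p = 0.267).

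Of the 4 CRMP genes with a Dpysl symbol, Dpysl2, which encodes CRMP2, a tubulin-binding protein of axon specification, was lower at 18 h. It was at -0.36, -0.62 and -0.74 (mean -0.57 ± 0.19 SD, n = 3, adjusted p = 0.0107), with 18 h minus 1 h at -0.48 (adjusted p = 0.241). The call went without array 2 (-0.55, adjusted p = 0.0501) or array 3 (-0.49, adjusted p = 0.0705). Dpysl3, Dpysl4 and Dpysl5 had means of -0.13, -0.14 and 0.00 and were not called.

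The values of stathmins and CRMPs moved with the plate that supplied their probes. Stmn2, Stmn3, Stmn4, Dpysl2, Dpysl3 and Dpysl4 all came from plate 43, whose 96 probes had a median of -0.51 at 18 h (-0.15 at 1 h), with 2 called higher and 41 lower. After subtraction of the median of its plate on every array, Stmn4 was at -0.17 (adjusted p = 0.297), Stmn2 at 0.02 (0.932) and Dpysl2 at -0.04 (0.907), while Stmn3, Dpysl3 and Dpysl4 became higher, at 0.35, 0.41 and 0.39 (adjusted p = 0.0326, 0.0432 and 0.0143). Stmn4 at 18 h minus 1 h was then -0.28 (adjusted p = 0.423). Stmn1, on another plate, stayed lower at -0.76 (adjusted p = 0.0131). Plate 28, which held 20 of the 44 probes, had a median of 0.14 at 18 h, with 18 probes higher and 7 lower. After centring, Tubg1 was at 1.15 (adjusted p = 0.000454), Tuba1a 28E09 at -1.42 (0.00266) and Tubb2b at -0.82 (0.00109), and their differences between 18 h and 1 h still passed (1.09, -1.64 and -0.81, adjusted p = 0.0325, 0.0427 and 0.0476). Map1b 31C04 (1.63), Map1a (0.55) and Map6 (-0.52) also kept their calls. The part of the plate in the plate 43 values was not tested.

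**Figure D4:**
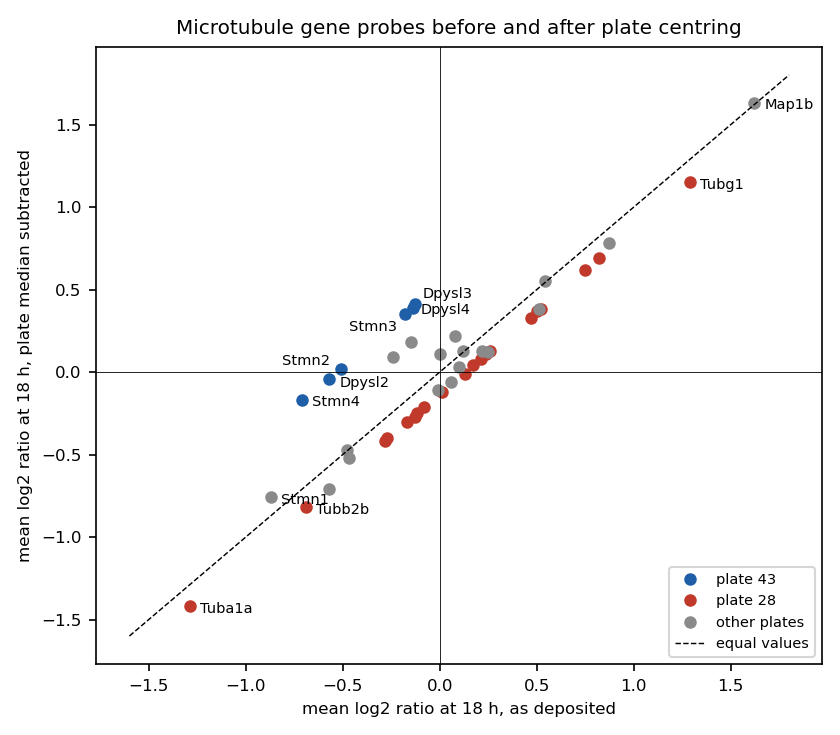
Mean log2 ratio at 18 h after subtraction of plate medians (vertical axis) against the mean as deposited (horizontal axis) for the 44 microtubule probes, 3 arrays each, with the dashed line at equal values. The 6 probes of plate 43 lie above the line, between -0.17 and 0.41 after centring, whereas Tuba1a 28E09, Tubb2b and Tubg1 of plate 28 moved little.

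Among kinesin heavy chains Kif2a, Kif6 and a probe of Kif1b were higher at 18 h. Of 12 member probes for 11 genes, 3 were higher and none lower, against 10.6% higher and 11.3% lower over all probes, with a median of 0.36 against 0.01. Kifc1 (-0.37, adjusted p = 0.184) and Kifc3 (0.24, adjusted p = 0.205), outside the rule, were not called at 18 h. Of the 12, 11 lay on plate 28. After centring on plate medians, a setting that called 20.0% of all probes, 2 were higher and 1 lower, with a median of 0.23. The lower one was then Kif1c (-0.40, adjusted p = 0.0174). Kif2a, which encodes a kinesin that takes microtubules apart at their ends, was at 0.46, 0.80 and 0.99 (mean 0.75 ± 0.27 SD, n = 3, adjusted p = 0.00319), and its difference from 1 h was 0.56 (adjusted p = 0.207). Kif6 was at 0.49, 1.62 and 0.35 (mean 0.82 ± 0.70 SD, n = 3, adjusted p = 0.00748), and without array 2 the mean was 0.42 (adjusted p = 0.0545), as array 2 lay far above the others. With the 18 h arrays alone Kif6 was not called (adjusted p = 0.191, limma). Kif2a and Kif6 kept the call after plate centring, at 0.62 (adjusted p = 0.0162) and 0.69 (adjusted p = 0.0182).

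Kif1b, a carrier of synaptic vesicle precursors and mitochondria, had 2 unlike probes. Probe 28E05 was at 0.97, 1.06 and 0.97 at 1 h (mean 1.00, adjusted p = 0.00784), 1.37, 0.46 and 0.96 at 3 h (mean 0.93, adjusted p = 0.00841) and 0.75, 0.52 and 0.83 at 12 h (mean 0.70, adjusted p = 0.025). At 6 h its mean of 0.54 was not called (adjusted p = 0.111). At 18 h it was at 0.37, 0.58 and 0.60 (mean 0.52 ± 0.12 SD, n = 3, adjusted p = 0.0474), a call lost with any 1 array left out (0.0851 to 0.158) and after plate centring (0.38, adjusted p = 0.143). The value at 18 h was thus below that at 1 h, by a difference of -0.48 that did not pass (adjusted p = 0.346). For this probe as well, a constant dye preference cannot be told apart from a change of the transcript. Probe 28E01 was at -0.35, -0.33 and 0.33 at 18 h (mean -0.12, adjusted p = 0.643) with a mean of 0.20 at 1 h.

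The other 8 kinesin heavy chain genes were not called at any time on the deposited ratios, where 2.33% (1 h) to 22.0% (18 h) of all probes were called. In a fit without the 3 wide arrays of 6 and 12 h, Kif27, Kif4a and Kif3a were called higher at 18 h (adjusted p = 0.0253, 0.0262 and 0.0443). Leaving out array 2 of 18 h gave calls for 18.5% of all probes. Kif27 (0.73, adjusted p = 0.0205) and Kif11 (1.03, adjusted p = 0.00241) were then called. At 18 h their means were 0.87 for Kif3c, 0.50 for Kif27, 0.47 for Kif4a, 0.26 for Kif3a, 0.21 for Kif11, -0.13 for Kif2c, -0.27 for Kif1c and -0.28 for Kif5b. Several had arrays of opposite sign, and 3 are given here after their values were seen. Kif3c, a subunit of a neuronal kinesin-2, was at 1.08, -0.25 and 1.77 at 18 h (adjusted p = 0.343), and at 4.20, -0.07 and -0.06 at 12 h, where 1 array made the mean of 1.36. The mitotic kinesins Kif11 (0.96, -1.42 and 1.10) and Kif2c (0.72, -1.17 and 0.05) were likewise below 0 at 18 h only on array 2.

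Neither kinesin light chains nor dynein chains had a called probe at any time on the deposited ratios. Over all probes 2.33%, 2.87%, 4.19%, 8.58% and 22.0% were called at 1, 3, 6, 12 and 18 h. Klc1, the neuronal cargo-binding light chain, was at -0.24 at 18 h with an interval of -0.46 to -0.02 (adjusted p = 0.109) and at 0.26 at 1 h, a difference of -0.50 (adjusted p = 0.087), and Klc3 was at 0.10. The 10 dynein probes, for 9 genes, had a median of 0.04 at 18 h. After plate centring Dynlt1 was called lower (-0.30, adjusted p = 0.0387). Without array 1 Dync2h1 probe 18D10 was higher (0.72, adjusted p = 0.0477), and without array 2 Dync1li1 was higher (0.60, adjusted p = 0.0171). In that order, these settings called 20.0%, 16.3% and 18.5% of all probes at 18 h. Dync1h1, the heavy chain that holds the motor domain, had a mean of 0.06 with an interval of -0.22 to 0.34 at 18 h. The intermediate chains Dync1i1 and Dync1i2 were at 0.01 and -0.08, the light intermediate chains Dync1li1 and Dync1li2 at 0.22 and -0.01, and the light chains Dynll1, Dynlt1 and Dynlrb1 at 0.12, -0.17 and -0.57. The 2 probes of Dync2h1, the heavy chain of ciliary dynein, were at 0.51 (adjusted p = 0.0788) and 0.25. The widest interval among dynein probes at 18 h was that of Dynlrb1, -1.10 to -0.03 (adjusted p = 0.121), which lies below 0 on its own while the adjusted p did not pass.

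Other genes of the microtubule system, such as tubulin chaperones, plus-end proteins, severing enzymes, dynactin, motor adaptors and tau kinases, were taken from a list. Of 71 listed genes 20 were measured, each by 1 probe, and at 18 h none was higher and 1 lower (median -0.10). Over all probes 10.6% were higher and 11.3% lower. The lower one was Crmp1, a CRMP gene that the rule by symbol left out. It was at -0.19, -0.70 and -1.44 (mean -0.78, adjusted p = 0.00694), and its probe also lay on plate 43. At 1 h 1 of the 20 was higher, against 0.732% of all probes. Between 18 h and 1 h none was called, against 2.74%.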

How the data were processed

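Total RNA of dbcAMP-treated (Cy5) and untreated (Cy3) DRG cultures was labelled with dendrimers and hybridised to 15 spotted oligonucleotide arrays, 3 per time. The deposited table holds a linear ratio of the dyes for every probe and array, as the authors computed it. How they corrected background, normalized and filtered is not given in the sources used here, and scanner intensities were not used, so the signal over background behind a ratio is unknown. The number of arrays limits the precision.

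The log2 of each ratio was fitted with limma 3.58.1 in R 4.3.3 (lmFit, eBayes), with a mean per time and all 15 arrays in a fit that shares the spread. Probes measured on 2 or 3 arrays of a time were tested against 0, between 18 h and 1 h, and for any difference among times (F test), two-sided, with Benjamini-Hochberg adjustment over all probes tested. The treatment protocol lists 0 h as the first time, whereas the labels of the arrays give 1 h, which was used. Probes were named through the platform annotation (4423 with 1 symbol, 2 with several, 663 with none), and all 44 member symbols were current in GRCr8. Probe plates were read from the probe names.

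The members, lists and tests were chosen with earlier results of these data known. Array values are given for members called at 18 h with 1 sign on all 3 arrays, for those called between 18 h and 1 h or in the F test, and for other probes of such genes. Kif3c, Kif11 and Kif2c were added after their values were seen. The fit was run on simulated data, with no result given here. That run is thus no evidence of how the fit behaves at 18 h, where all 3 arrays had a wide spread. Alternatives were plate or array medians, scaling to 1 spread, fits of single times, replicate number as a block, array weights, probes with all ratios, the methods' t-test, a threshold of 0.01, averaging of probes and leaving out arrays. Plate medians over other probes only, and a fit without 3 wide earlier arrays, were added after the data were seen. Motifs were searched with Python 3.11.15, and plots were drawn with matplotlib 3.10.9.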

Additional observations from a re-analysis of the deposited data

Results flagged for a closer look

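For 4 probes the ratio differed between times by the test of the difference itself. Tubg1 was higher at 18 h than at 1 h by 1.14 (adjusted p = 0.0185, limma), and its F test over the 5 times gave an adjusted p of 0.0296. Tuba1a probe 28E09 (-1.59, adjusted p = 0.0427), Tubb2b (-0.76, adjusted p = 0.0412) and Stmn4 (-0.65, adjusted p = 0.0316) were lower at 18 h than at 1 h. Stmn4 lies on plate 43 and lost the difference when arrays were centred on plate medians (-0.28, adjusted p = 0.423). The other 3 kept it. With a common spread none of the 4 passed (adjusted p = 0.126 to 0.301, limma), against 0.240% of all probes. None passed with the arrays of 1 h and 18 h alone (adjusted p = 0.0684 to 0.206, limma), against 0.961%. With an array number left out, only Tuba1a 28E09 without number 1 passed (adjusted p = 0.0407, limma).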

How the results depend on the processing

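With the methods' t-test, which uses the 3 arrays of a time alone without shared spread, 6, 8, 7 and 8 members passed an unadjusted 0.05 at 1, 3, 6 and 12 h, 10 at 18 h (4 higher and 6 lower), and 8 between 18 h and 1 h, against 12.9%, 15.0%, 9.11%, 9.75%, 18.1% and 15.9% of all probes. After Benjamini-Hochberg adjustment 0 members passed at each of the 5 times and 0 between 18 h and 1 h. Of all probes, 1 passed at 18 h and 38 (0.761%) between 18 h and 1 h. In limma with the arrays of the times alone, 0 were called at 6 h, 1 at 12 h, 2 at 18 h (2 higher and 0 lower) and 0 between 18 h and 1 h. Those fits called 0.198%, 0.0997%, 3.66% and 0.961% of all probes. With a common spread, 6 were called at 3 h, 6 at 18 h (3 higher and 3 lower), 0 between 18 h and 1 h and 0 in the F test. The shares of all probes were 8.67% at 3 h, 8.37% at 18 h and 0.240% between 18 h and 1 h. Array weights gave 6 at 3 h, 1 at 12 h and 9 at 18 h, against 11.1%, 3.59% and 13.3% of all probes. The 9 at 18 h were without Kif1b 28E05, Map1a, Map6 and Dpysl2. Plate medians, over all probes or over those outside the set, gave 4 at 6 h, against 3.22% and 3.26% of all probes. They gave 14 at 18 h, against 20.0% and 20.1% of all probes, of which plate medians over all probes shared 9 with the deposited ratios. Stmn2 at 18 h changed sign to 0.02 and, with medians over probes outside the set, 0.05, as did Stmn4 at 12 h (0.01). A threshold of 0.01 left 1 at 6 h, 2 at 12 h, 0 between 18 h and 1 h and 0 in the F test. With an array number left out, 1 to 1 was called at 1 h, 1 to 2 at 3 h, 1 to 3 at 6 h, 1 to 5 at 12 h and 9 to 11 at 18 h (5 to 7 higher and 4 to 6 lower). Between 18 h and 1 h 0 to 1 was called and in the F test 0. Of the other microtubule genes, 0 were called at 18 h with the 18 h arrays alone, 0 by the methods' t-test at an unadjusted 0.05 and 0 after adjustment, and 0 to 2 with an array left out. Over all probes at 18 h, 1101 were called, 419 with a common spread, 183 with the 18 h arrays alone, 664 with array weights and 617 at 0.01. Without the 3 wide arrays of 6 and 12 h, 16 members and 29.8% of all probes were called at 18 h. Causes of these changes were not tested. Array medians and the demand for all 3 ratios changed no call of a named member.

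Replicate numbers did not pair the arrays: deviations of same-numbered arrays correlated at -0.0524 to 0.0685 (30 pairs), and those of different numbers at -0.0849 to 0.13. With the number as a replicate block, 12 members were called at 18 h (not Kif1b 28E05), 2 between 18 h and 1 h (not Tubb2b, adjusted p = 0.0577, nor Stmn4, adjusted p = 0.0606) and 0 in the F test. That fit called 21.7% of all probes at 18 h and 2.04% between 18 h and 1 h.

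The limits are 3 arrays a time, a single dye orientation, all arrays of 18 h being among those of wide spread, ratios with unknown signal over background, and probes of a gene that disagreed for Tuba1a, Map1b and Kif1b.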
